A study of Mus musculus with 2 samples.

Results

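DNA damage checkpoint and repair genes were compared between Menin WT and Menin KO mouse CD4 T cells. Menin, encoded by Men1, is a nuclear scaffold protein that binds chromatin-modifying complexes. The 44 genes were taken by name, and a probe belonged to one of them when its RefSeq transcript did. Of the 44, 43 had a probe, 63 probes in all, among 18430 named genes and 41164 probes. Mdc1, a scaffold at DNA breaks, had no named probe.

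The study compared 1 array of Menin WT cells with 1 array of Menin KO cells, both female C57BL/6J. Naive splenic CD4 T cells were stimulated for 2 days through the T cell receptor (antibody to its beta chain, 3 µg/ml) and CD28 (antibody, 1 µg/ml). IL-2 (2.5 ng/ml) was present, and culture in IL-2 went on for 3 days. The labels name neither the Men1 allele, nor a Cre driver, nor the number of animals behind a sample. With 1 array a group, differences have no test and no replicate check.

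DNA damage stops the cell cycle and is mended along several routes. The kinases ATM and ATR sense breaks and stalled replication and act through the kinases CHK2 and CHK1. Breaks are rejoined either by copying the sister chromatid, which is homologous recombination and works in S and G2 phase, or by direct end joining, which works throughout the cycle. The Fanconi proteins clear crosslinks at replication forks, while mismatch, base excision and nucleotide excision repair replace damaged or wrong bases. Many checkpoint and recombination genes are transcribed most in cells that replicate their DNA. Activated T cells divide quickly, and lymphocytes also use end joining to build their antigen receptors.

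Values are the processed signal of a spot, background-subtracted and on a linear scale with no absolute unit. Differences are KO minus WT on the log2 scale, after each array was divided by its 75th percentile of signal (644 in WT, 650 in KO). The value after ± is the signal error that Feature Extraction, the scanner software, gives each spot, carried over to the log2 difference. It lay between 0.20 and 0.25 for the members. It does not hold the spread between mice, cultures or hybridisations. A gene read by several probes is given by the brightest, and the other probes are named where they differ. All 43 genes were well above background on both arrays.

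The signal of Men1 was 1081 in WT and 459 in KO, 2.38-fold lower, and that of Bach2, a repressor of effector genes named in the series title, was 4643 and 604. Whether the Men1 probe lies in the deleted part is not known here, so it checks the labels only in part. Of 8 CD4 T cell markers, 8 were above background on both arrays, and 2 of them, Cd5 and Cd2, were at least 2-fold lower in KO. Their summed signal was 199141 in WT and 139297 in KO for all 8. Cd4 itself went from 443 to 279 (-0.68), while Cd3g was higher in KO (14762 and 19263, 0.37). Several markers of other cells were higher in KO. The summed signal was 312 in WT and 3213 in KO for Cd8a, the only CD8 marker with a probe, 3289 and 9449 for 6 natural killer markers, 934 and 1688 for 6 B cell markers, 373 and 694 for 8 macrophage markers, and 106.5 and 654 for 6 mast cell and basophil markers. At least 2-fold higher were Cd8a; 3 of the natural killer markers, while 1 (Eomes) was at least 2-fold lower; 2 of the B cell markers; 3 of the macrophage markers; and 3 of the mast cell and basophil markers. Of the macrophage markers, Mpeg1 (-0.64) and Csf1r (-0.39) were lower in KO, and Lyz2 was above background in WT only. C1qb was near 0 (0.0025). Pax5, Itgam and Ms4a2 were not well above background on either array, and neither was the erythroid marker Alas2. The part of these cells in the values below was not tested. In bulk RNA, fewer cells of a type and less RNA per cell cannot be told apart.

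Most checkpoint and repair genes were lower in the KO array, by amounts that were mostly under 2-fold. Of 43 genes, 40 lay below 0 and 3 above. Over all 13510 named genes with a difference, 50.5% lay below 0. The median of the 43 was -0.57, with quartiles of -0.76 and -0.31, beside a median of -0.0053 over all named genes. At least 2-fold lower were 5 of 43 genes, while 5.14% of all named genes passed the same line. They were Bard1, Timeless, Brip1, Chek1 and Rad51ap1. No member was at least 2-fold higher, against 10.8% of all named genes. The 13510 genes include 1035 above background on 1 array only, which no member was. Of the 12475 genes above background on both arrays, 563 (4.51%) were at least 2-fold lower and 1105 at least 2-fold higher. Among these 12475 genes 52.9% lay below 0, with a median of -0.029. After normexp, another background correction, 3 of 43 members (6.98%) were at least 2-fold lower, a smaller share than the 13.2% of all named genes (1682 of 12740). The split over all named genes turned from 694 lower and 1458 higher to 1682 lower and 601 higher. At least 1.5-fold lower were 20 members, against 12.7% of all named genes, and none was 1.5-fold higher, against 17.3%. The difference was 2 signal errors or more for 28 genes, 1 to 2 for 8, and under 1 for 7. Since that error was close to 0.20 for nearly all members, these counts mainly follow the size of the difference.

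**Figure D1:**
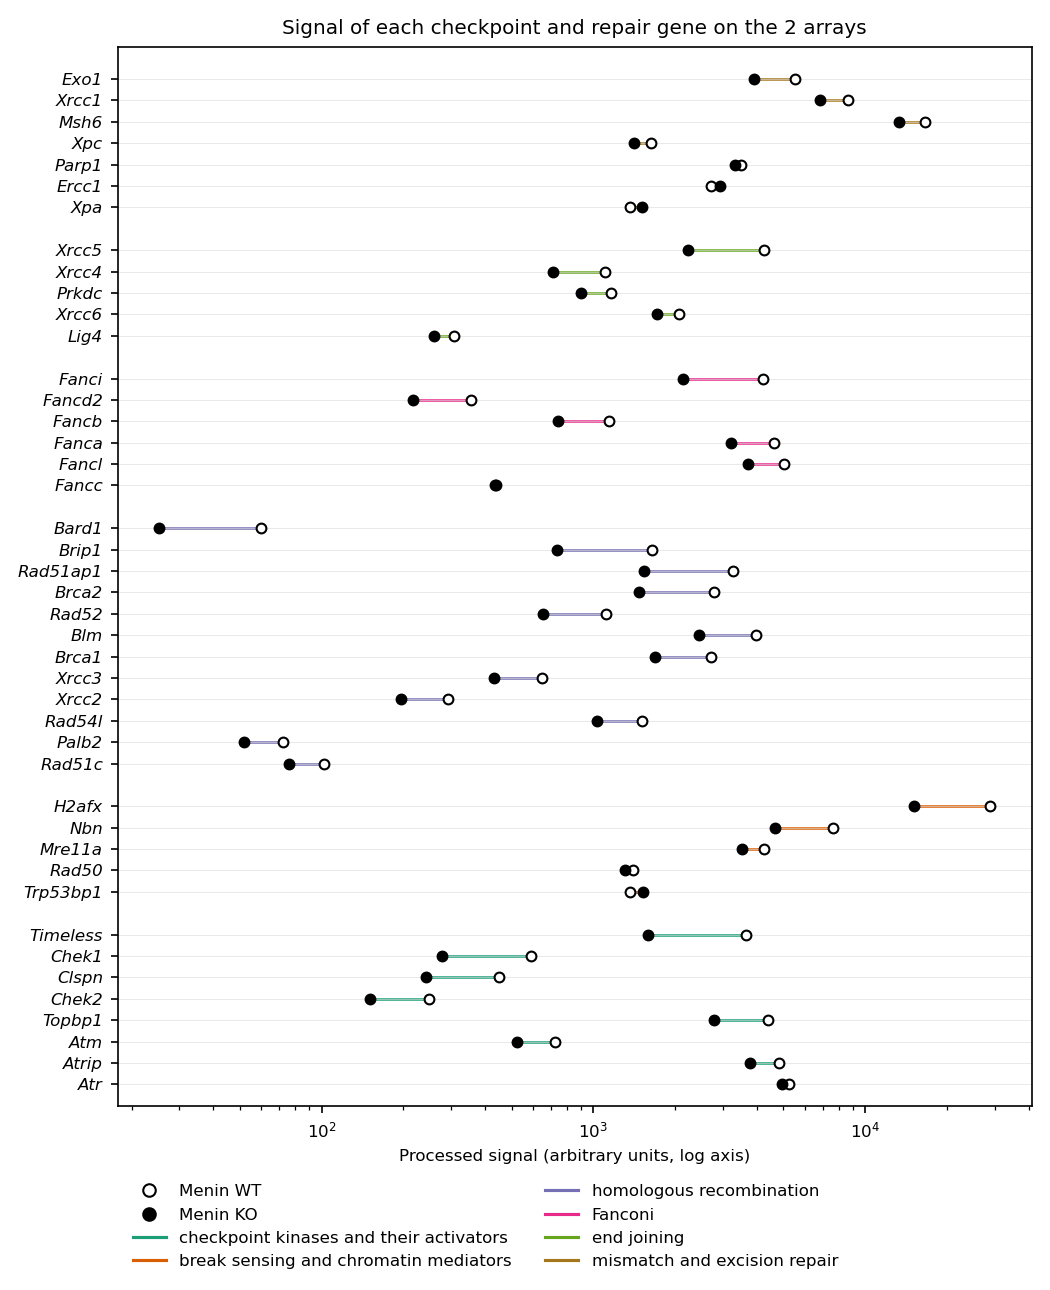
Processed signal (arbitrary units, log axis) of the brightest probe of each of the 43 genes on the Menin WT array (open circles) and the Menin KO array (filled circles), grouped by class, with a line joining the pair. The filled circle lies to the left for most genes, and to the right for Trp53bp1, Ercc1 and Xpa.

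Class medians ranged from -0.70 to -0.23. Checkpoint kinases and their activators had a median of -0.70 (8 genes) and homologous recombination genes -0.70 (12 genes). Fanconi genes followed at -0.59 (6 genes), end joining genes at -0.38 (5 genes), break sensing and chromatin genes at -0.28 (5 genes), and mismatch and excision repair genes at -0.23 (7 genes). The 5 genes past 2-fold all fell in the classes with the lowest medians, 2 among the checkpoint genes and 3 among the recombination genes. Medians and counts come from the same values. With median centring, Fanci, H2afx and Xrcc5, of other classes, also passed 2-fold. The ranges of the classes overlapped, so the order is one of medians. After normexp the break sensing median was -0.017 and the mismatch and excision repair median -0.044.

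**Figure D2:**
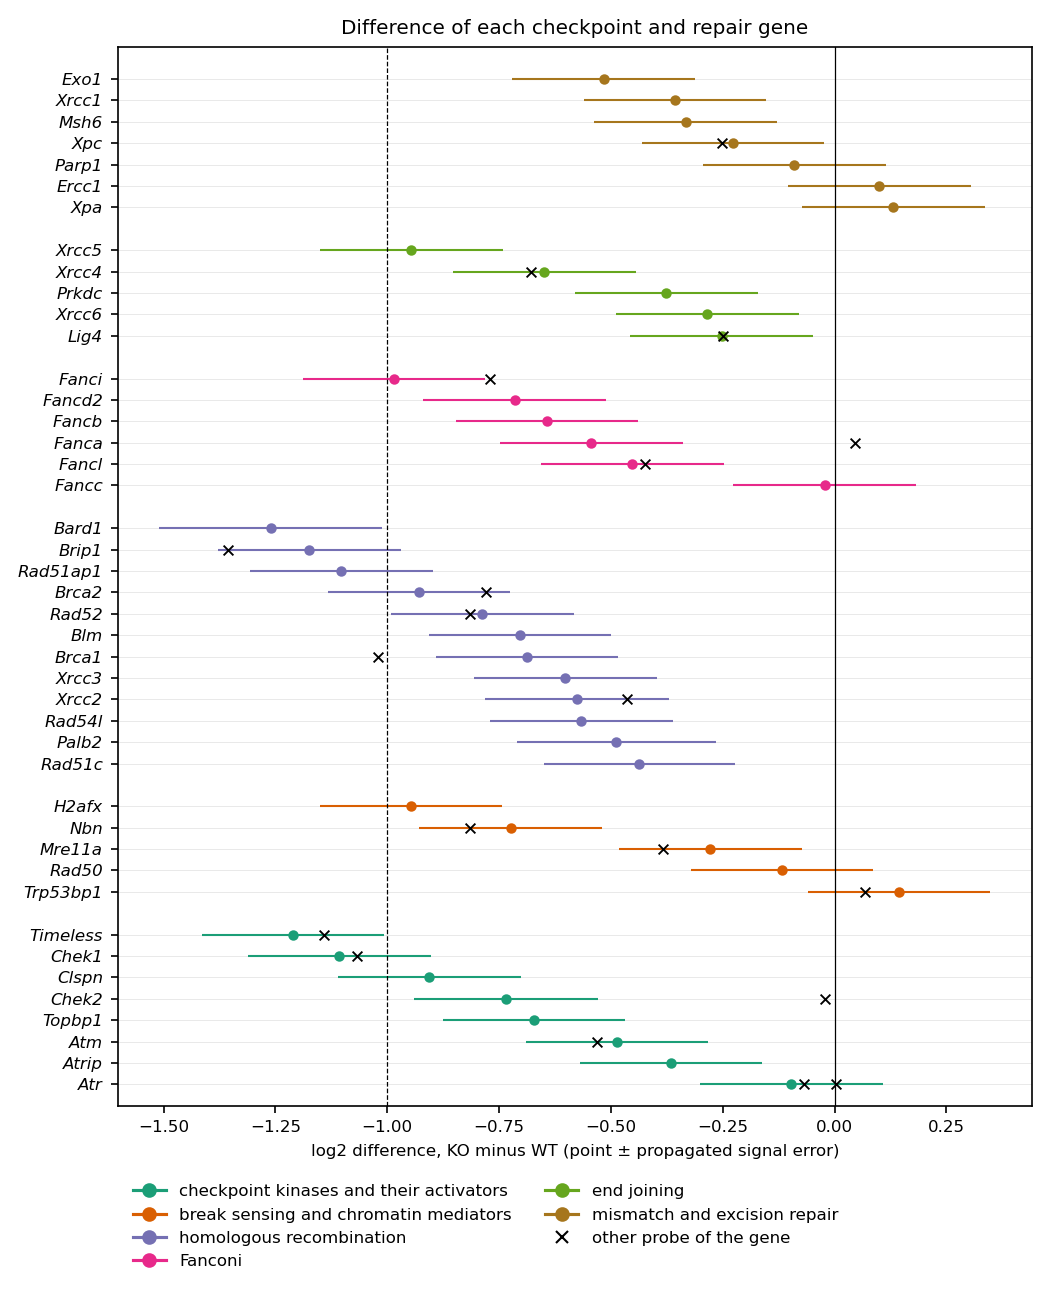
Difference of each gene on the log2 scale, KO minus WT, by class. Points are the brightest probe with its propagated signal error, crosses are other probes of the same gene, and the dashed line marks 2-fold lower. Recombination genes all lie at or below -0.44, while mismatch and excision repair genes spread from -0.52 to 0.13.

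Of the checkpoint kinases, Chek1 was about 2-fold lower and Atr was near 0. The signal of Chek1, the kinase that halts the cycle when replication stalls, was 590 in WT and 277 in KO. It was 2.15-fold lower, with a difference of -1.11 ± 0.20, and its second probe gave -1.07. It fell just short of 2-fold after normexp (-0.99), normexp with aberrant local backgrounds replaced (-0.97) and loess scaling (-0.99). Atr, the sensor kinase upstream of CHK1, stood at 5249 (WT) and 4952 (KO), a difference of -0.10 ± 0.20. Its other probes gave -0.07 and 0.004, so 3 probes placed it near 0. Atrip, the partner that carries ATR to single-stranded DNA, went from 4820 to 3775, a difference of -0.37 ± 0.20.

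Chek2, the kinase ATM activates at breaks, stood at 249 (WT) and 151 (KO), a difference of -0.73 ± 0.21. Its second probe was dim, at 17.2 and 17.1, and gave -0.02. With both probes averaged the Chek2 difference was -0.38, so its size depended on the choice of probe.

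Atm, the kinase that answers double-strand breaks, was read by a probe printed in 10 places on each array, which shows the scatter of a single measurement. Its signal ran from 177 to 208 in WT (median 189) and from 124 to 144 in KO (median 134). The ranges did not overlap, and the KO spot was the lower in 10 of 10 positions. The mean over these spots was 192 ± 10.2 in WT and 134 ± 6.86 in KO (SD over 10 spots of 1 array), a difference of -0.53 ± 0.12 (SD over spots). The brighter Atm probe went from 725 to 522, a difference of -0.49 ± 0.20.

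Prkdc, the catalytic kinase of end joining and a relative of ATM and ATR, was also printed repeatedly, with 9 spots usable on both arrays. Its signal ran from 1135 to 1210 in WT (median 1152) and from 871 to 942 in KO (median 907), again without overlap. The difference was -0.37 ± 0.04 (SD over 9 spots), 1.29-fold lower. Over the 112 probes printed at least 5 times with a signal of 100 or more, the pooled SD of the difference over spots was 0.056. For the 34 dimmer ones it was 0.323.

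**Figure D3:**
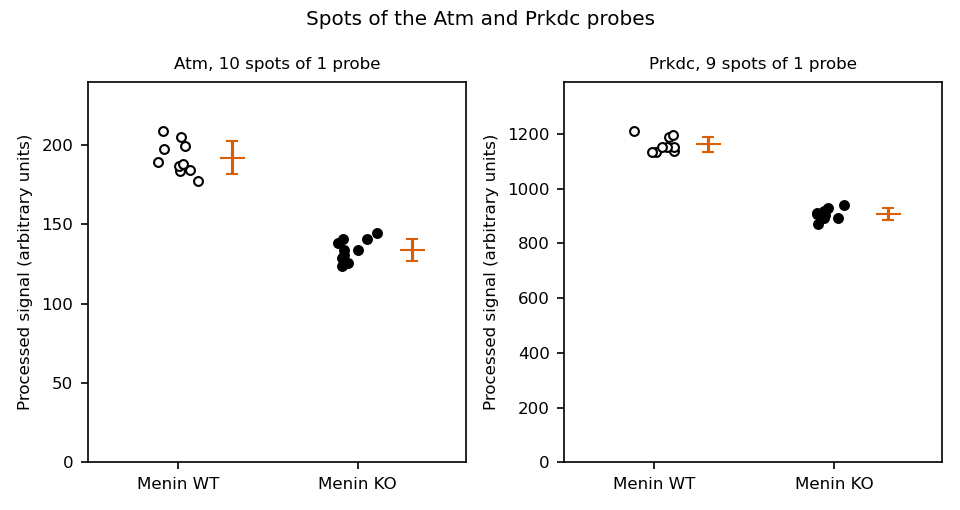
Processed signal (arbitrary units, axis from 0) of single spots of 1 Atm probe and 1 Prkdc probe on each array, with the mean and SD over spots in orange. The WT and KO spots of either gene do not overlap, and the spots show technical scatter within an array only.

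Timeless, Clspn and Topbp1, which act in the checkpoint at the replication fork, were lower by 1.59- to 2.32-fold. Timeless, a component of the fork protection complex, stood at 3651 (WT) and 1591 (KO), and was 2.32-fold lower (-1.21 ± 0.20). Its other probe gave -1.14. Timeless passed 2-fold under each of the 10 other ways of computing the difference. Clspn, the adaptor through which ATR reaches CHK1, went from 449 to 242 (-0.91 ± 0.20). Topbp1, the activator of ATR, went from 4401 to 2788 (-0.67 ± 0.20). Tipin, the partner of Timeless, went from 26521 to 17786 (-0.59), and Timeless minus Tipin was -0.62 ± 0.29. The clamp genes Rad9a (-0.22), Rad1 (-0.22) and Hus1 (-0.19) and the clamp loader gene Rad17 (-0.12), which also act in that checkpoint, lay nearer to 0. They belong to a list of 21 other checkpoint genes with a median of -0.43. In that list Rpa3 (-0.63), Rpa2 (-0.62) and Etaa1 (-0.43) lay further from 0 than the clamp genes.

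Break sensing genes were split. The MRN complex binds a broken end and recruits ATM. Its regulatory subunit Nbn went from 7636 to 4663, a difference of -0.72 ± 0.20, and a second probe gave -0.82. Its nuclease Mre11a went from 4245 to 3533 (-0.28 ± 0.20, second probe -0.38) and its zinc-hook ATPase Rad50 from 1404 to 1305 (-0.12 ± 0.20). Nbn minus Rad50 was -0.61 ± 0.29, and Mre11a minus Rad50, at -0.16 ± 0.29, was within its error.

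H2afx encodes the histone variant that is phosphorylated around breaks. Its signal was 28887 in WT and 15121 in KO, a difference of -0.95 ± 0.20. Trp53bp1, which favours end joining over recombination, was among the 3 genes above 0, at 1361 in WT and 1518 in KO (0.14 ± 0.20, second probe 0.07). That difference was smaller than its error.

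Of the homologous recombination genes, 12 of 12 lay below 0, the nearest to 0 at -0.44. Bard1, the obligate partner of BRCA1, had the largest difference of all members (-1.26 ± 0.25) on a dim signal, 60 in WT and 25.2 in KO. After normexp with aberrant local backgrounds replaced it was -0.66. Brip1, a helicase that binds BRCA1, rested on brighter signals, 1649 and 737 (2.26-fold lower, -1.17 ± 0.20), and its other probe gave -1.36. Rad51ap1, an accessory factor of recombination, went from 3262 to 1533 (2.15-fold lower, -1.10 ± 0.20). After normexp, Brip1 (-0.94) and Rad51ap1 (-0.86) fell short of 2-fold.

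Brca2, a mediator of recombination, went from 2768 to 1467 (-0.93 ± 0.20) and its second probe gave -0.78. Brca1, the scaffold of end resection, went from 2699 to 1691 (-0.69 ± 0.20), and a dimmer probe gave -1.02 (94.9 and 47.2). Palb2, the bridge between BRCA1 and BRCA2, was dim at 71.8 and 51.7 (-0.49 ± 0.22), and past 2-fold after normexp. These genes of the BRCA axis all lay on the same side, and Brca1 minus Bard1 was 0.57 ± 0.32 and Brca2 minus Palb2 -0.44 ± 0.30.

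Rad52, an annealing factor, stood at 1115 and 652 (-0.79 ± 0.20), with -0.82 by its second probe. Blm, the helicase that dissolves recombination intermediates, went from 3951 to 2448 (-0.70 ± 0.20). Its dissolution partner Top3a was nearly equal at 264 and 270 (0.02), and Blm minus Top3a was -0.72 ± 0.29. The recombination genes Xrcc3 (646 and 430, -0.60 ± 0.20), Xrcc2 (291 and 197, -0.58 ± 0.21) and Rad51c (102 and 76, -0.44 ± 0.21) lay close to one another. Rad54l, a DNA-dependent motor protein of recombination, went from 1509 to 1029 (-0.57 ± 0.20).

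All 6 Fanconi genes lay below 0, from Fanci at 1.98-fold lower to Fancc at 1.02-fold. Fanci and Fancd2 form the clamp that is ubiquitinated at a crosslink. Fanci went from 4197 to 2139 (-0.99 ± 0.20), and a dim second probe, above background in WT only, gave at least 1.71-fold lower. Fancd2 went from 353 to 217 (-0.72 ± 0.20). Of the core complex, Fancb went from 1143 to 738 (-0.64 ± 0.20), Fanca from 4619 to 3197 (-0.54 ± 0.20) and the ubiquitin ligase Fancl from 5033 to 3712 (-0.45 ± 0.20). Fanca had a second, dim probe that gave 0.04, and the mean of both was -0.25. Fancc, another core subunit, had the smallest difference of all members, at 438 in WT and 435 in KO (-0.02 ± 0.20).

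Among end joining genes, the genes of the Ku ring, which caps a broken end, were lower by unequal amounts. Xrcc5, encoding Ku80, stood at 4238 (WT) and 2219 (KO), 1.93-fold lower (-0.95 ± 0.20). Xrcc6, encoding its partner Ku70, had 2066 and 1712 (-0.28 ± 0.20). Xrcc5 minus Xrcc6 was -0.66 ± 0.29, each gene being read by 1 probe. Of the ligation complex, Xrcc4 went from 1105 to 711 (-0.65 ± 0.20, second probe -0.68) and the ligase Lig4 from 306 to 259 (-0.25 ± 0.20, second probe -0.25). Xrcc4 minus Lig4 was -0.40 ± 0.29, and either gene's probes gave values within 0.2 of each other.

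The mismatch and excision repair median of -0.23 was near that of break sensing (-0.28), and after normexp the break sensing median was the nearer to 0. Exo1, an exonuclease of mismatch repair and of end resection, led the class, at 5525 in WT and 3897 in KO (-0.52 ± 0.20). Msh6, which recognises mismatches, went from 16651 to 13338 (-0.33 ± 0.20). In single-strand break repair, the scaffold Xrcc1 went from 8627 to 6798 (-0.36 ± 0.20), while Parp1, the sensor of nicks, was at 3487 and 3306 (-0.09 ± 0.20). Lig3, the ligase XRCC1 binds, was at 254 and 346 (0.43), and Xrcc1 minus Lig3 was -0.79 ± 0.29.

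The nucleotide excision members differed by about 1 signal error or less. The damage detector Xpc was at 1634 and 1409 (-0.23 ± 0.20, second probe -0.25), the verifier Xpa at 1360 and 1503 (0.13 ± 0.20) and the nuclease subunit Ercc1 at 2703 and 2924 (0.10 ± 0.20). Ercc4, the catalytic partner of ERCC1, had a difference of -0.06, and Ercc1 minus Ercc4 was 0.16 ± 0.29, within its error. Other genes of that route were further apart: the damage-binding genes Ddb2 (1838 and 863, -1.10) and Ddb1 (3975 and 5154, 0.36), and the nuclease gene Ercc5 (507 and 313, -0.71). In all, 18 such pairs were compared. Tipin, Rad9a, Rad1, Hus1, Rad17, Rpa3, Rpa2, Etaa1, Top3a, Lig3, Ercc4, Ercc5, Ddb1 and Ddb2 were no members and were chosen after the members' values were seen.

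The values of a gene's probes give a check within each array. Of the 43 genes, 19 had several probes with a usable difference and 24 had 1. For 15 of the 19, the probes lay within 0.2 of one another, and the other four were Fanci, Brca1, Fanca and Chek2. In 2 genes, Atr and Fanca, probes had opposite signs, in both cases with a value near 0 on a dimmer probe.

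A wider list of other repair genes showed a smaller shift. A difference was available for 108 of 112 genes. The 2-fold line was passed by 10 downward (9.26%, beside 5.14% of all named genes) and by 1 upward (beside 10.8% of all named genes). The list had a median of -0.26 and 83 genes below 0 (76.9%, beside 50.5% of all named genes). Its subsets had medians of -0.43 for 21 other checkpoint genes, -0.31 for 38 other recombination and Fanconi genes, -0.27 for 9 other end joining genes, and -0.20 for 40 other mismatch and excision repair genes.

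The largest difference in the wider list was that of Neil3, a DNA glycosylase, at 1422 (WT) and 318 (KO), 4.51-fold lower. Its relative Neil2 was above background in KO only, at 13 and 37.8, and was at least 2.68-fold higher. Dntt, the polymerase that adds bases at antigen receptor joints in developing lymphocytes, went from 1750 to 573 (3.08-fold lower). Eme1, a subunit of a junction nuclease, was 2.39-fold lower (863 and 365), Rad54b 2.26-fold (1303 and 582) and Polq, the polymerase of alternative end joining, 2.25-fold (196 and 87.9).

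The checkpoint and recombination medians of -0.70 lay beside those of 2 cell division lists. For DNA replication the median was -0.71, with 3 of 34 at least 2-fold lower and 32 below 0. Mitosis genes had a median of -1.05, with 16 of 26 at least 2-fold lower and 26 below 0. Prim2, a primase subunit, and Pole, a replicative polymerase, had the largest differences of the replication list (-4.03 and -1.01). Kif11, a spindle motor, and Ccna2, cyclin A2, led the mitosis list (-1.48 and -1.46). The share at least 2-fold lower was 11.6% in the 43 repair genes, 8.82% in the replication list and 61.5% in the mitosis list, beside 5.14% of all named genes. After normexp the shares were 6.98%, 2.94% and 19.2% (5 of 26 mitosis genes), beside 13.2% of all named genes. At 1.5-fold they were 46.5%, 73.5% and 96.2%, beside 12.7%, so the order of repair and replication genes depended on the fold used. The part of cell division in the repair genes' values was not tested.

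**Figure D4:**
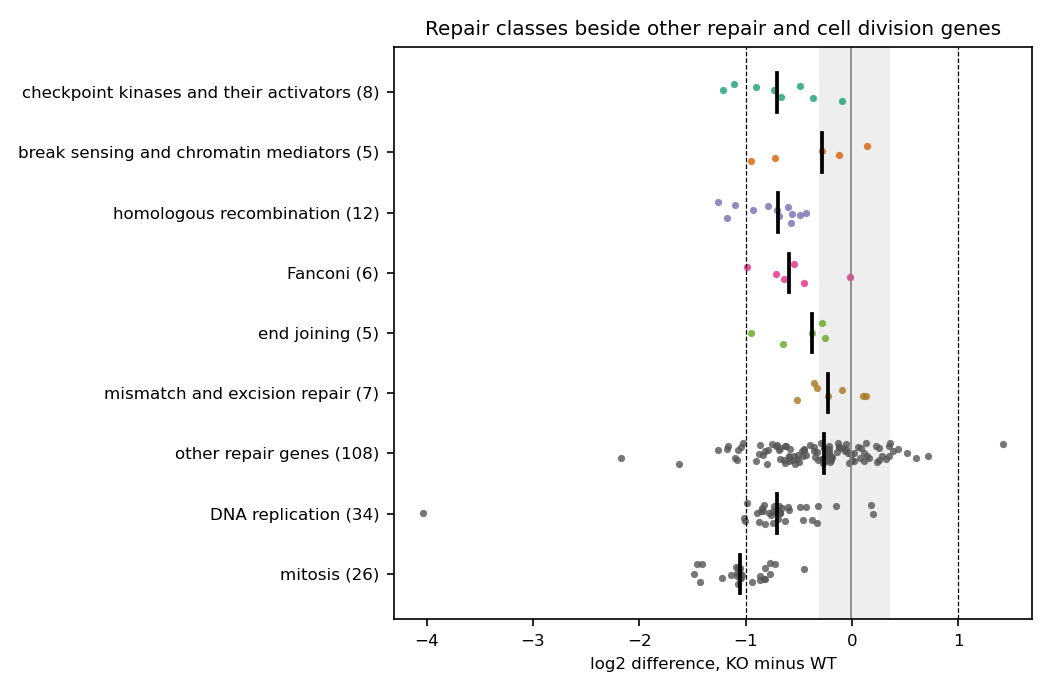
Log2 difference, KO minus WT, of every gene in each class (number of genes in brackets), beside other repair, DNA replication and mitosis genes. Black bars are medians, the grey band and line are the quartiles and the median of all named genes, and dashed lines mark 2-fold. Medians run from -0.23 in mismatch and excision repair to -1.05 in mitosis.

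Promoter windows were searched for 3 short motifs of cell cycle promoters, since most of these genes lay on the same side of 0. The windows, from RefSeq on GRCm38.p6, run from 250 bases before to 50 bases after the annotated start. A window was found for 36 of the 44 genes. The E2F motif was searched as TTTCCCGC, TTTGGCGC, TTTCGCGC or TTTGCCGC, the CHR motif, a late cell cycle element, as TTTGAA or TTCGAA, and the CCAAT box, which the factor NF-Y binds, as CCAAT. Both strands were read, and no match to one motif overlapped a match to another in these genes. A match is a description of the letters, not of a bound site.

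The E2F letters stood in 9 of the 36 genes (25%), against 2.60% of all 27025 genes with a window and 2.26% of all windows. They stood in 12 of 27 replication genes (44.4%), 2 of 22 mitosis genes and 6 of 87 other repair genes. The CHR letters stood in 17 of 22 mitosis genes (77.3%) and in 2 of the 36 repair genes, against 21.7% of all genes (19.2% of windows). The CCAAT box was present in 21 of 36 repair genes (58.3%), against 41.1% of all genes (37.4% of windows). It stood at like shares in other repair (57.5%) and replication genes (59.3%) and in 81.8% of mitosis genes. The genes with E2F letters were Bard1, Brca2, Chek2, Clspn, Msh6, Rad51c, Topbp1, Xrcc6 and the unread Mdc1. Their differences ran from -1.26 to -0.28, with a median of -0.70 over the 8 measured, beside -0.54 over 27 genes whose window lacked the letters (-1.21 to 0.14). The ranges overlapped.

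The stretches around the E2F letters are shown for the 5 measured genes whose match lies wholly before the start, in the direction of transcription, with the match in capitals. Letters on the reverse strand read GCGGGAAA or GCGCGAAA. The stretches lie at chr1:71103144-71103211 (minus strand), chr5:150522423-150522490, chr5:110839801-110839868, chr9:103305168-103305235 and chr15:82016293-82016360 (plus strand).
Bard1: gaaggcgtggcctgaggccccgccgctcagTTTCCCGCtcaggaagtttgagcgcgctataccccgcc
Brca2: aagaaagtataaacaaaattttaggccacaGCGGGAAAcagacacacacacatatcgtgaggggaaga
Chek2: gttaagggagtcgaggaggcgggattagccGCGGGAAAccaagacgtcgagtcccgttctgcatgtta
Topbp1: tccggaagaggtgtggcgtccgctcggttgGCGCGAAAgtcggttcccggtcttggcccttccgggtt
Xrcc6: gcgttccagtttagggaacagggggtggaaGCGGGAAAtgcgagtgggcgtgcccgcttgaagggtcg

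Counted from the start, the match began at -209 in Bard1, -168 in Brca2, -152 in Chek2, -129 in Topbp1 and -46 in Xrcc6. Bard1 and Xrcc6 carry the same letters on opposite strands, with differences of -1.26 and -0.28. In Clspn and Msh6 the letters followed the start, and in Rad51c a match spanned it.

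Of the other genes at least 2-fold lower, Brip1 and Rad51ap1 held CCAAT boxes close to the start and no E2F letters, and Chek1 and Timeless held none of the 3 motifs. The boxes are shown in capitals, reading ATTGG on the reverse strand, for Brip1 at chr11:86201203-86201312 and Rad51ap1 at chr6:126939599-126939643 (both minus strand).
Brip1: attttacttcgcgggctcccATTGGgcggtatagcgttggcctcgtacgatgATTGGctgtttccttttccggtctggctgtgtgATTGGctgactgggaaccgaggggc
Rad51ap1: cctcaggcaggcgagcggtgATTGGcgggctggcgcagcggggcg

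Brip1 had 3 boxes, beginning at -99, -67 and -34. Rad51ap1 had a box at -36 and another, not shown, at -230. Over all members, those with a CCAAT box had a median of -0.55 (20 genes) and those without one -0.65 (15 genes).

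**Figure D5:**
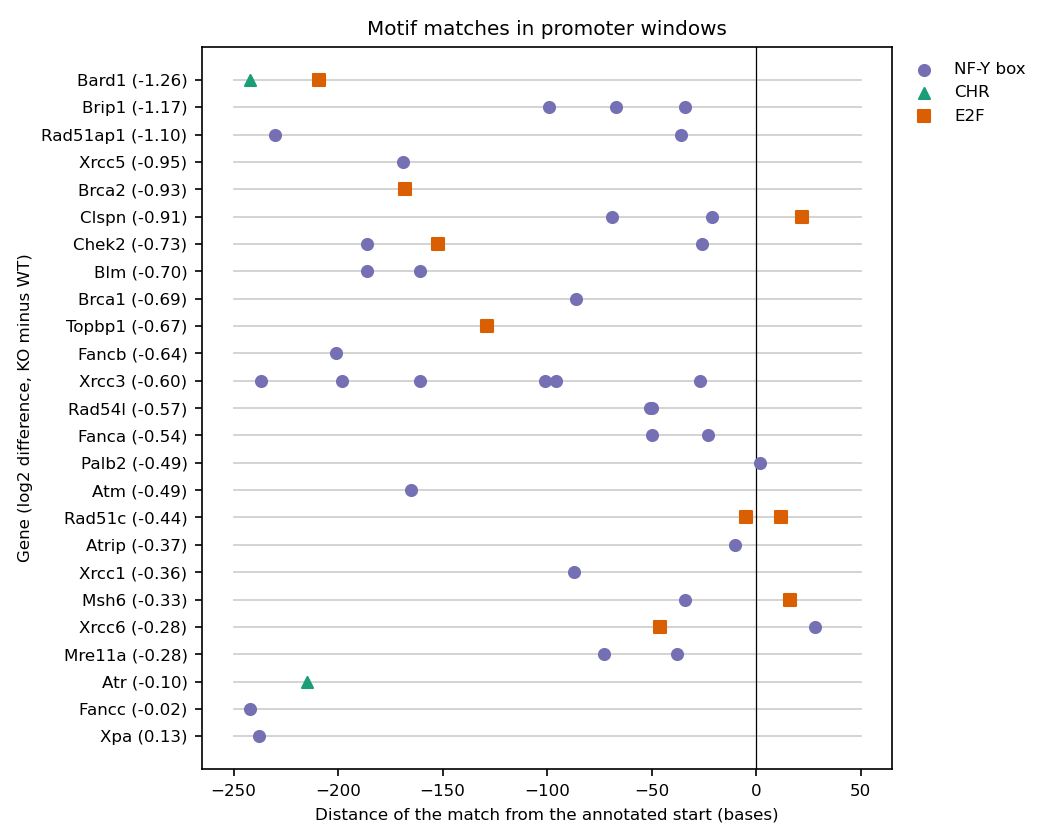
Place of each motif match in the promoter windows of the measured genes that hold one, in bases from the annotated start, ordered by log2 difference (in brackets, KO minus WT). Squares are E2F letters, triangles CHR letters and circles the box that NF-Y binds, and matches stand at both ends of the order.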

How the data were processed

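The authors deposited 2 Agilent Feature Extraction files, read per the file headers with version 10.7.3.1 (10.7 in the submitters' processing notes) on a design annotated on mm9. The deposited intensity is background-subtracted and detrended, dim spots carry a surrogate value, and the arrays are not scaled to each other. The authors' log2 values are log2 of that signal minus a constant per array. Each array had 43379 non-control spots, of which 59.5% (WT) and 63.5% (KO) were well above background. Outlier-flagged spots were left out (115 and 103), log2 signals were set against the array's 75th percentile, and spots of a probe were averaged. Probes were named by RefSeq transcript (GRCm38.p6 table), which covered 27043 of 41164 probes. H2afx is listed there as H2ax. A gene took its brightest probe well above background on at least 1 array. Where only 1 array was above background, the difference is a bound, measured against the lowest level above background on the other. The 2-fold rule replaced a test. All measured members are reported, and some of the other genes the naming rule picked are not reported here. Members, classes, lists and motifs were chosen with earlier results of these data known. Alternatives were normexp (offset 50, limma 3.58.1, on median signals, as the files used here hold no mean signal column), quantile, median and loess scaling (span 0.3), the authors' values, the mean over probes, other filters and a 1.5-fold rule. The procedure was tested on simulated data. The number of arrays limits the precision.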

Additional observations from a re-analysis of the deposited data

How the results depend on the processing

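No paired analysis was possible because each group has 1 array. No member at least 2-fold lower changed sign under the alternatives run, members below 0 numbered 37 to 40, and no member was 2-fold higher under any of them. The 5 members at least 2-fold lower were the same 5 under quantile scaling, the authors' values, the mean over probes, kept flags and both other filters. They became 3 after normexp (Bard1, Palb2, Timeless), 3 after normexp with aberrant backgrounds replaced (Brip1, Rad51ap1, Timeless), 4 after loess (without Chek1), 9 with median centring and 20 with the 1.5-fold rule. With backgrounds replaced the share was 6.98% of members, beside 2.79% of all named genes. It was 9.30% beside 4.66% after loess and 20.9% beside 6.03% with median centring. With the 1.5-fold rule it was 46.5% beside 12.7%. After normexp, 13.2% of all named genes were at least 2-fold lower, above the shares of members (6.98%), other repair genes (5.61%) and replication genes (2.94%). Normexp moved 27 of 43 members by more than 0.160, the pooled SD over spots of all 146 probes printed at least 5 times, bright and dim together. Among them, Atrip went to -0.09, Mre11a to -0.017, Msh6 to -0.055 and Rad51c to -0.89, and Atr (0.087), Rad50 (0.061) and Parp1 (0.092) went above 0. Fancc was above 0 after loess (0.093) and by the authors' values (0.0018). Normexp gave medians of -0.017 (break sensing), -0.39 (Fanconi), -0.044 (mismatch and excision repair), -0.47 (replication) and -0.78 (mitosis). Local background was over 200 at 6 spots of the WT array and 0 of the KO array. Other repair genes at least 2-fold lower, 10 as reported (9.26%), were 6 after normexp (5.61%), 4 with backgrounds replaced (3.70%) and 6 after loess (5.56%). The shares of all named genes were 5.14%, 13.2%, 2.79% and 4.66%, in the same order. With the 1.5-fold rule 30 other repair genes were lower (27.8%, beside 12.7%). Other repair genes higher, 1 as reported (beside 10.8% of all named genes), were 0 after normexp and 0 with backgrounds replaced. They were 0 when both arrays had to be above background, and 3 with the 1.5-fold rule (beside 17.3%). Replication genes lower, 3 as reported (8.82%), were 1 after normexp, 1 after loess and 1 by the authors' values (2.94% each). By the authors' values 4.86% of all named genes were lower. With the 1.5-fold rule 25 replication genes were lower (73.5%). Mitosis genes lower, 16 as reported (61.5%), were 5 after normexp (19.2%) and 25 with the 1.5-fold rule (96.2%). The cause was not tested. Signal over background limits the dim members: the pooled SD over spots was 0.323 under a signal of 100 and 0.056 above it.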
